A study of Arabidopsis thaliana with 6 samples.

Results

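The genes examined here make the galactolipids and the sulfolipid of the plastid. They are *MGD1*, *MGD2*, *MGD3*, *DGD1*, *DGD2*, *SQD1*, *SQD2*, *UGP3* and *SFR2*, 9 loci chosen by name, of which 8 were measured among 22681 tested genes. A probe was assigned to a locus when its transcript accession belonged to that locus in the RefSeq gene table, and 11 probes were assigned in this way. None of the accessions of *MGD1* (AT4G31780) was matched by a probe name, so *MGD1* is not analysed here. Transcript signals were read on 6 one-colour Agilent arrays of *Arabidopsis thaliana* (Columbia-0 background), made from whole seedlings, 3 of the wild type and 3 of *pgp1-2*. This mutant carries a lesion in *PGP1*, which encodes a phosphatidylglycerophosphate synthase, and it was studied for the effect of a shortage of phosphatidylglycerol on plastid and nuclear photosynthesis genes. All seedlings grew in continuous light on agar with 3% sucrose. They were first kept at 30 µmol photons m-2 s-1, the wild type for 7 d and *pgp1-2* for 14 d, and both then stayed for 7 d under 15 µmol photons. The wild type was therefore 14 d old and the mutant 21 d old, and genotype and age cannot be told apart in any difference below. The labels do not say how many seedlings were in a sample or whether samples came from separate cultures, so p-values measure the spread between these samples.

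Monogalactosyldiacylglycerol and digalactosyldiacylglycerol are the galactolipids that make up most of the thylakoid membrane, and sulfoquinovosyldiacylglycerol is its sulfolipid. In Arabidopsis, *MGD1* and *DGD1* encode the synthases of the bulk of the galactolipids, while *MGD2*, *MGD3* and *DGD2* are known for their induction when phosphate is short, when galactolipids take the place of phospholipids outside the plastid. The sulfolipid and phosphatidylglycerol are the acidic lipids of the thylakoid, and under phosphate shortage the sulfolipid is known to rise as phosphatidylglycerol falls.

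Levels are given as log2 of the processed signal relative to the 75th percentile of the same array, which lay between 2620 and 3653 on the 6 arrays. A gene is described as called when its limma p, adjusted by Benjamini-Hochberg over all 22681 genes, was below 0.05. The mutated gene *PGP1* (AT2G39290) had levels of 0.78, 0.93 and 0.73 in the wild type and was well above background on none of the 3 *pgp1-2* arrays, which makes it at least 226-fold lower there, or at least 141-fold without mutant replicate 1. Replicate 1 of both groups was hybridised on slide 1 and replicates 2 and 3 on slide 2, and 78.7% to 79.3% of probes exceeded the background clearly on slide 1 but 68.5% to 70.5% on slide 2. Of all tested genes 52.4% were called, 24.5% lower and 27.9% higher in *pgp1-2*.

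Of the 8 measured galactolipid and sulfolipid genes, 5 were called lower in *pgp1-2*, 0 were called higher and 3 were not called. Those that fell were *MGD2*, *SFR2*, *SQD2*, *DGD1* and *SQD1*, and *MGD3*, *DGD2* and *UGP3* were not called. Their share is to be read against the 24.5% of all genes that were called lower, and with 8 genes it has no test of its own. Both groups were apart, with every mutant array below every wild-type array, at the same 5 genes, a pattern found at 29.6% of all genes. A fall of at least 2-fold was reached by 2 of the 8, *MGD2* and *SFR2*, against 8.05% of all genes.

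**Figure D1:**
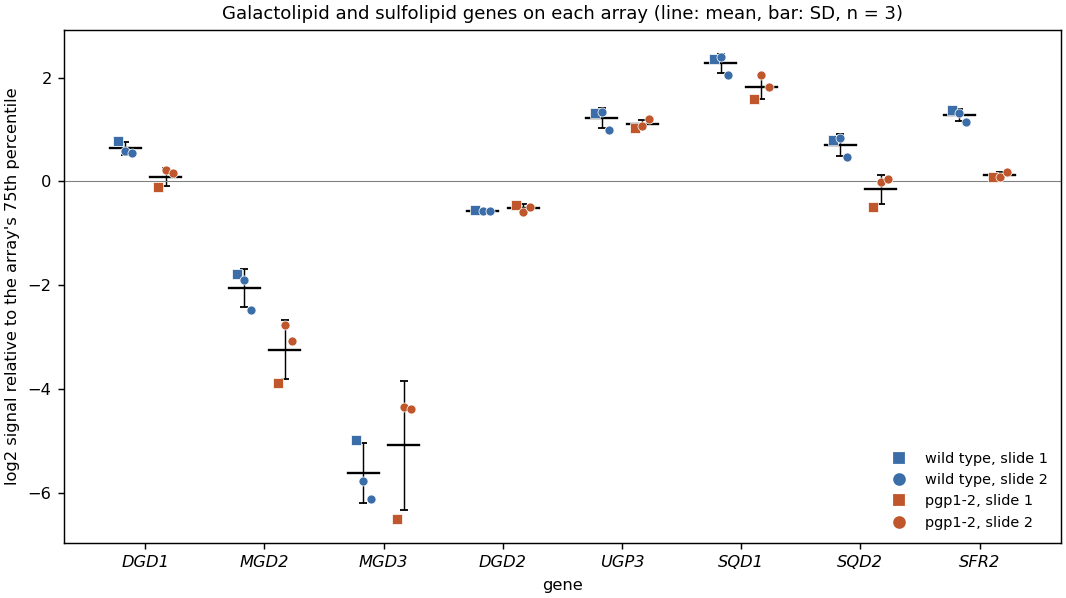
Log2 signal relative to the 75th percentile of the array (vertical axis) for the 8 measured genes (horizontal axis), with 1 point per array, squares for slide 1 and circles for slide 2, wild type in blue and *pgp1-2* in orange, and the mean and SD of 3 arrays in black. The groups are apart at *DGD1*, *MGD2*, *SQD1*, *SQD2* and *SFR2* and overlap at *MGD3*, *DGD2* and *UGP3*; heights of different genes are not comparable, because each has its own probe.

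*DGD1* (AT3G11670, chromosome 3) encodes the main synthase of digalactosyldiacylglycerol, in the outer envelope of the plastid. Its level was 0.78, 0.59 and 0.54 on wild-type arrays 1 to 3 and -0.11, 0.21 and 0.16 on *pgp1-2* arrays 1 to 3. All mutant arrays were below all wild-type arrays, and mutant array 1 was the lowest. The mean went from 0.64 ± 0.12 to 0.090 ± 0.17 (SD, n = 3), so that mutant minus wild type was -0.55 (standard error 0.11, 95% interval -0.82 to -0.27, limma adjusted p = 0.00874), which left 68.5% of the wild-type signal. A second *DGD1* probe, named for another transcript accession of the locus, gave -1.57, -1.73 and -1.77 in the wild type and -2.38, -2.17 and -2.14 in *pgp1-2*. Fitted by itself it differed by -0.54 (limma adjusted p = 0.00487), so both probes were called lower by nearly the same amount. Scaled to the spike-in RNAs of the arrays instead of the 75th percentile, the *DGD1* difference was -0.16 and was not called (limma adjusted p = 0.299; 0.00475 to 0.804 over all alternatives).

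*MGD2* (AT5G20410, chromosome 5) encodes one of the 2 monogalactosyldiacylglycerol synthases of the phosphate-stress pathway. Its level was -1.78, -1.91 and -2.47 in the wild type and -3.88, -2.77 and -3.08 in *pgp1-2*. The groups were apart, though the lowest wild-type array and the highest mutant array were close. The mean went from -2.05 ± 0.37 to -3.24 ± 0.57 (SD, n = 3), which puts the difference at -1.19 (standard error 0.32, 95% interval -1.97 to -0.41, limma adjusted p = 0.0228). *MGD2* therefore fell to 43.9% of its wild-type signal, and 6.37% of all tested genes had a lower difference. The call was lost without wild-type replicate 1 (-1.05, limma adjusted p = 0.0697) or wild-type replicate 2 (-1.11, limma adjusted p = 0.0748), in fits with 1 array fewer. It was also lost within slide 2 and without the filter on dim probes, and its adjusted p ranged from 0.0143 to 0.133 over all alternatives.

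*MGD3* (AT2G11810, chromosome 2) encodes the other synthase of this kind, and its signal was near the background. Its processed signal was 83.1, 57.9 and 42.9 in the wild type and 38.1, 179.2 and 157.4 in *pgp1-2*, and it was well above background on 2 of 3 wild-type and 3 of 3 mutant arrays. As log2 levels these were -4.98, -5.76 and -6.12 against -6.51, -4.35 and -4.39. The mutant group held both the lowest array and the highest arrays of the 6, and the groups overlapped. The mean difference of 0.53 came with a standard error of 0.64 and an interval of -1.02 to 2.09 at 95% (limma adjusted p = 0.512), which spans a fall and a rise of 2-fold. The direction followed the slide: on slide 1, with 1 array per group, mutant minus wild type was -1.53, and on slide 2, with 2 arrays per group, it was 1.57 (limma adjusted p = 0.00771 within slide 2). Without mutant replicate 1, the mutant array of slide 1, the difference was 1.25 and called higher (limma adjusted p = 0.0363), whereas under the normexp background correction, a model-based one started from the raw spot signal, it was -0.49 and not called. Over the 6 arrays *MGD3* passed the filter on dim probes through the mutant group alone, where its mean was higher. Its p-values are therefore not taken as support for a rise.

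*DGD2* (AT4G00550, chromosome 4) encodes the phosphate-stress synthase of digalactosyldiacylglycerol. Its level was -0.56, -0.56 and -0.57 in the wild type and -0.45, -0.59 and -0.50 in *pgp1-2*. The groups overlapped within a narrow range. Wild-type arrays averaged -0.56 ± 0.0061 and mutant arrays -0.51 ± 0.071 (SD, n = 3). They differed by 0.055, with a 95% interval of -0.10 to 0.21 (limma adjusted p = 0.503). A second *DGD2* probe differed by -0.035 (limma adjusted p = 0.674, fitted by itself). The interval of the first probe leaves no room for a 2-fold change in either direction relative to the 75th percentile. Relative to the spike-in RNAs the difference was 0.44 and called higher (limma adjusted p = 0.00926; 0.00926 to 0.971 over all alternatives), and under median scaling its sign turned (-0.0035).

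**Figure D2:**
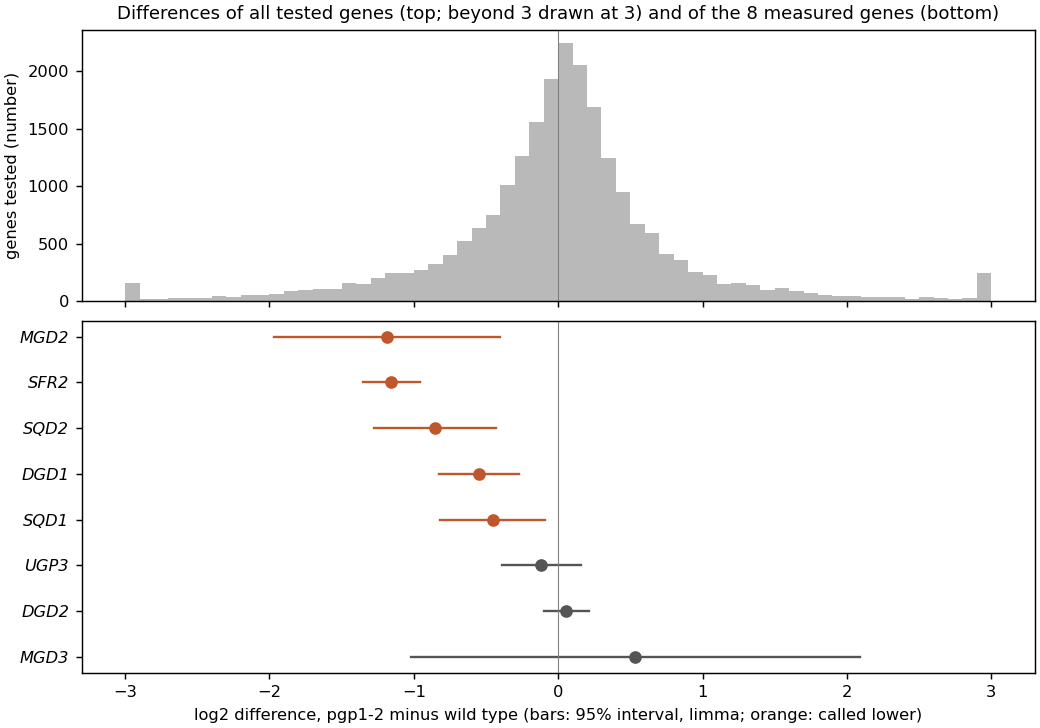
Top, number of tested genes (vertical axis) by log2 difference, *pgp1-2* minus wild type (horizontal axis), with values beyond 3 in either direction drawn at 3; bottom, the same difference for the 8 measured genes with its 95% limma interval, orange where called lower. The 5 called genes lie between -1.19 and -0.45, while the interval of *MGD3* runs from -1.02 to 2.09.

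The phosphate-stress synthases did not share a direction: *MGD2* fell, *DGD2* was at 0.055 and *MGD3* at 0.53 without a call. The housekeeping and phosphate-stress synthases of digalactosyldiacylglycerol could be set against each other on each array, where the scaling cancels. The log2 ratio of *DGD2* to *DGD1* was -1.34, -1.15 and -1.11 in the wild type and -0.34, -0.80 and -0.66 in *pgp1-2*. Every mutant array was above every wild-type array. The mean ratio went from -1.20 ± 0.12 to -0.60 ± 0.24 (SD, n = 3), a change of 0.60, or 1.52-fold (exact two-sided permutation test, p = 0.1, the smallest that 3 arrays against 3 allow, so the design could not pass 0.05). Under the scaling used for the levels above, *DGD2* differed by 0.055 and *DGD1* by -0.55, so most of this change was the fall of *DGD1*. Relative to the spike-in RNAs the differences were 0.44 for *DGD2* and -0.16 for *DGD1*, so most of it was then a rise of *DGD2*. The ratio itself does not depend on the scaling, but the part of each gene in it does. All 4 pairings of a *DGD2* probe with a *DGD1* probe kept the groups apart, with changes of 0.51 to 0.60. These pairings share the same genes and arrays and are not separate support. Among single genes the groups were apart in either direction at 64.2%, and the share among other pairs of genes was not computed. The change was 1.00 on slide 1 and 0.40 on slide 2.

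The same comparison could not be made for the monogalactosyldiacylglycerol synthases without *MGD1*, so *MGD2* and *MGD3* were set against *DGD1*, a comparison chosen after the data were seen and given without a test. The log2 ratio of *MGD2* to *DGD1* was -2.56, -2.50 and -3.02 in the wild type and -3.77, -2.98 and -3.24 in *pgp1-2*, a mean change of -0.64 with overlapping groups. For *MGD3* the ratio was -5.76, -6.35 and -6.66 against -6.41, -4.56 and -4.56, a mean change of 1.08, again with overlap. The mean of the 3 phosphate-stress genes relative to *DGD1* changed by 0.35, from -3.38 ± 0.19 to -3.04 ± 0.41 (SD, n = 3), and the groups overlapped. That mean was of the opposite sign under normexp (-0.055) and on slide 1 (-0.29, against 0.66 on slide 2), and ran from 0.22 to 0.58 when 1 array was left out. Of these ratios to *DGD1*, the groups were apart for *DGD2* alone.

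**Figure D3:**
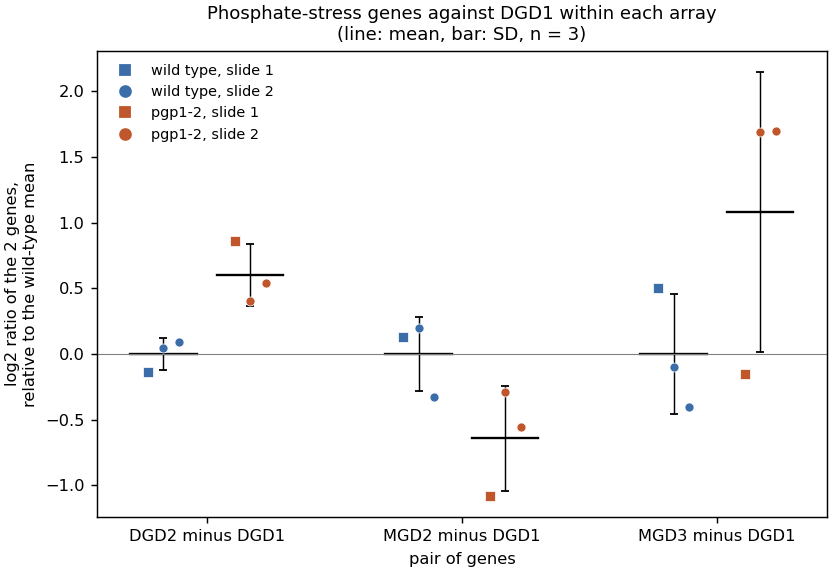
Log2 ratio of *DGD2*, *MGD2* and *MGD3* to *DGD1* on each array, as the distance from the wild-type mean (vertical axis), by pair of genes (horizontal axis); squares are slide 1, circles slide 2, blue wild type, orange *pgp1-2*, black the mean and SD of 3 arrays. The ratio of *DGD2* to *DGD1* is higher on all 3 mutant arrays, by 0.60 on average, and the other pairs overlap.

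The sulfolipid is made inside the plastid from UDP-glucose, sulfite and diacylglycerol. *UGP3* (AT3G56040, chromosome 3), a UDP-glucose pyrophosphorylase of the plastid, makes the sugar nucleotide for the first step. Its level was 1.32, 1.34 and 1.00 in the wild type and 1.03, 1.07 and 1.20 in *pgp1-2*. The groups overlapped, with wild-type array 3 the lowest of the 6. The log2 difference was -0.12 with a 95% interval of -0.39 to 0.16 (limma adjusted p = 0.420). A second *UGP3* probe differed by -0.037 (limma adjusted p = 0.808, fitted by itself).

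*SQD1* (AT4G33030, chromosome 4) joins UDP-glucose with sulfite to form UDP-sulfoquinovose. Its level was 2.37, 2.40 and 2.06 in the wild type and 1.60, 2.05 and 1.82 in *pgp1-2*. The groups were apart by little, between wild-type array 3 and mutant array 2. The mean went from 2.28 ± 0.19 to 1.82 ± 0.23 (SD, n = 3), which is lower by a log2 value of -0.45 (standard error 0.15, limma adjusted p = 0.0431). This call was close to the threshold and was kept in 6 of 20 alternative tests: it was lost with the replicate number as a block (adjusted p = 0.0505), with the slide as a block (0.0632), under quantile normalization (0.0816) and relative to the spike-in RNAs, where the difference was -0.065. Leaving out wild-type replicate 1 or 2 or mutant replicate 1 or 3 also lost it, with differences of -0.34 to -0.45.

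*SQD2* (AT5G01220, chromosome 5) transfers sulfoquinovose to diacylglycerol and so completes the lipid. Its level was 0.79, 0.84 and 0.46 in the wild type and -0.48, -0.019 and 0.039 in *pgp1-2*. All mutant arrays were below all wild-type arrays by a clear gap, and mutant array 1 was the lowest. Means of 0.70 ± 0.21 and -0.16 ± 0.29 (SD, n = 3) gave a difference of -0.85 (standard error 0.17, 95% interval -1.28 to -0.43, limma adjusted p = 0.00803), so 55.3% of the wild-type signal was left. *SQD2* was called lower in 18 of 20 alternative tests and in all 6 that left out an array. The difference between *SQD2* and *UGP3* or *SQD1* was not tested.

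*SFR2* (AT3G06510, chromosome 3) encodes a galactosyltransferase of the outer envelope that moves galactose from one monogalactosyldiacylglycerol to another and is known for protecting chloroplasts in freezing. Its level was 1.37, 1.32 and 1.15 in the wild type and 0.093, 0.082 and 0.19 in *pgp1-2*. The 3 mutant arrays lay close together and far below the wild type. Means of 1.28 ± 0.11 and 0.12 ± 0.058 (SD, n = 3) were apart by -1.16 (standard error 0.081, 95% interval -1.35 to -0.96, limma adjusted p = 0.000249). *SFR2* was thus 2.23-fold lower, and it had the lowest adjusted p of the 8 genes. It was called lower in 19 of 20 alternative tests; the exception was the scaling to measured spike-ins without the slide in the model (-0.74, adjusted p = 0.152), and with the slide as a block the same difference was called (0.00378).

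Within slides the 5 called genes kept their direction. On slide 1 the differences were -0.89 for *DGD1*, -2.09 for *MGD2*, -0.77 for *SQD1*, -1.28 for *SQD2* and -1.27 for *SFR2*. On slide 2 they were -0.38, -0.74, -0.29, -0.64 and -1.10 in the same order. All 5 were larger on slide 1, where there was 1 array per group, and *SFR2* varied least between the slides. Among the arrays of one group, wild-type replicate 3 was the lowest at 8 of 8 measured genes, where it was the lowest at 37.2% of all genes. Mutant replicate 1 was the lowest mutant array at 6 of the 8, against 28.2% of all genes. The part of this shared deviation in the differences was not tested, beyond the values without each array given above.

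The scaling set the level of all these differences together. Relative to the spike-in RNAs the median of all genes moved by 0.39 on the log2 scale, and *MGD2*, *SQD2* and *SFR2* were called lower and *DGD2* higher, where 10.6% and 56.7% of all genes were called lower and higher. With only the 7 of 10 spike-in kinds measured on each of the 6 arrays the shift was 0.41, and 0 of the 8 genes were called lower and 0 higher, against 4.8% and 15.5% of all genes. When the slide was also a block, *MGD2* and *SFR2* were called lower and *MGD3* and *DGD2* higher, against 9.42% and 47.2% of all genes. *DGD1*, *MGD2*, *SQD1*, *SQD2* and *SFR2* were below 0 under every scaling run. Differences are relative to the 75th percentile elsewhere in the text.

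**Figure D4:**
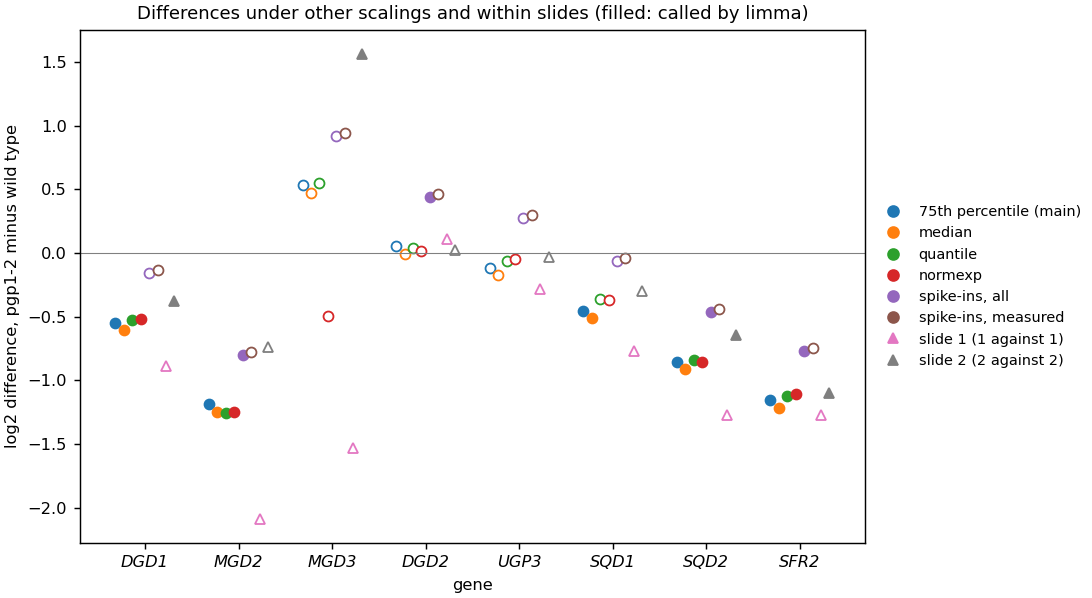
Log2 difference, *pgp1-2* minus wild type (vertical axis), of the 8 measured genes (horizontal axis) under 6 scalings (circles) and within each slide (triangles); filled symbols were called by limma, and slide 1, with 1 array per group, has no test. *DGD1*, *MGD2*, *SQD1*, *SQD2* and *SFR2* stay below 0 throughout, and *MGD3* is at -1.53 on slide 1 and 1.57 on slide 2.

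Whole seedlings hold leaf and root cells, and in such samples fewer cells of a type and less RNA per cell cannot be told apart. All 4 leaf markers were called lower, against 24.5% of all genes, with a median log2 difference of -0.88. Their summed linear signal, in units of the array's 75th percentile, was 509.6 to 565.8 in the wild type and 282.3 to 349.3 in *pgp1-2*. Under quantile normalization 2 of the 4 were called lower, and relative to measured spike-ins 1, against 23.8% and 4.8% of all genes. Of 10 root markers 6 were tested, of which 2 were called lower (*CASP1* and *CASP2*) and 2 higher (*PYK10* and *COBL9*), against 24.5% and 27.9% of all genes. *EXPA7*, *EXPA18* and *RHS19* were not tested, being well above background on no mutant array and on some but not all wild-type arrays. The calls of *CASP2* and *COBL9* were kept in 11 of 20 and 11 of 19 alternative tests and both lost under normexp, where *COBL9* was at 0.30. *COBL9* was well above background on 2 of 3 wild-type arrays and *CASP1* on 1 of 3 mutant arrays. Each passed the filter on dim probes only through the group where it was higher, so neither p is taken as support for a change. The summed signal of the 10 root markers was 17.8 to 19.4 in the wild type and 44.9 to 67.2 in *pgp1-2*, but *PYK10* alone made up 97.2% to 98.2% and 99.5% to 99.6% of it. Without *PYK10*, a sum added after seeing the data, the other 9 came to 0.317 to 0.534 in the wild type and 0.169 to 0.252 in *pgp1-2*, lower on every mutant array. Of 7 flower and pollen markers 1 was tested, *PI* at 0.055, and their summed signal was at most 0.336 on every array. The part of cell composition in the differences of the lipid genes was not tested.

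The genes that supply diacylglycerol to the plastid enzymes moved in both directions. Of 10 tested, 6 were called lower and 3 higher, against 24.5% and 27.9% of all genes, with a median log2 difference of -0.26 against 0.034 for all genes and -0.50 for the 8 galactolipid and sulfolipid genes. *ATS1* (AT1G32200), the plastid glycerol-3-phosphate acyltransferase, fell from 2.29 ± 0.063 to 1.46 ± 0.19 (SD, n = 3), a difference of -0.82 (limma adjusted p = 0.00154; not called relative to measured spike-ins). *ATS2* (AT4G30580), the acyltransferase of the next step, rose by 0.37 (limma adjusted p = 0.00712; not called relative to measured spike-ins alone). Relative to the spike-in RNAs the list held 1 gene called lower and 4 called higher, against 10.6% and 56.7% of all genes. Its median was then 0.13, under a scaling that moved the median of all genes by 0.39.

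Of 8 genes for phospholipid turnover outside the plastid, which frees diacylglycerol under phosphate shortage, 6 were tested. Of these 6, 3 were called higher and 0 lower, against 27.9% and 24.5% of all genes. *PLDP2* (AT3G05630), phospholipase D zeta 2, rose from -3.87 ± 0.096 to -2.90 ± 0.39 (SD, n = 3), a difference of 0.97 (limma adjusted p = 0.00765), which was 0.20 and not called under normexp. The phosphatidate phosphohydrolase genes *PAH1* and *PAH2* rose by 0.31 and 0.34, calls kept in 13 and 11 of 20 alternative tests and lost without wild-type replicate 1 or 2, among others. Under normexp 0 of the 6 were called higher and 0 lower, against 12.5% and 17.1% of all genes. *PLDP1* was at -0.0039 and not called.

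Of 15 phosphate starvation genes 14 were tested. Of these 14, 4 were called higher, 1 lower and 9 not called, with a median difference of 0.31. The number called higher is near the share of all genes called higher, 27.9%, and 24.5% of all genes were called lower. *RNS1* (AT2G02990), a ribonuclease, was well above background on 2 of 3 wild-type and on 3 of 3 mutant arrays, so its wild-type level is uncertain. It passed the filter on dim probes through the mutant group alone, so its p is not taken as support for a rise. Its levels were -6.34 ± 0.53 and -2.06 ± 0.47 (SD, n = 3), a difference of 4.28 (limma adjusted p = 0.000319) that was 2.17 and called under normexp. *PHT1;4*, a phosphate transporter, rose by 1.11, a call kept in 15 of 20 alternative tests and lost under normexp and without wild-type replicate 1 or 3. *PAP17*, an acid phosphatase, rose by 0.66 (19 of 20 kept), and *PHL1*, a relative of *PHR1*, rose by 0.31 (9 of 20 kept). Under normexp 2 of the 14 were called higher and 0 lower, against 12.5% and 17.1% of all genes. The gene for *PHR1* (AT4G28610), a central transcription factor of the phosphate response, was called lower (-0.30, limma adjusted p = 0.0398), kept in 6 of 20 alternative tests and of the opposite sign relative to the spike-in RNAs. *SPX1* and *SPX3*, which are also known for induction under phosphate shortage, had differences of 0.27 and 0.70 and were not called. *SPX3* was well above background on 1 of 3 wild-type arrays. The other genes not called went both ways. *AT4*, *PHT1;1*, *PEPC1* and *SPX2* were at -0.80, -0.66, -0.24 and -0.034, and *PS2*, *PS3* and *PHO1;H1* at 0.31, 0.31 and 0.41. Like *MGD3*, *SPX1* and *SPX3* were lowest on mutant replicate 1 of the mutant arrays, at -0.23 and -6.46, and highest on mutant replicate 2, at 1.27 and -4.27. Among the arrays of 1 group, mutant replicate 1 was the lowest at 9 of the 14 genes and wild-type replicate 3 at 10, against 28.2% and 37.2% of all genes.

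**Figure D5:**
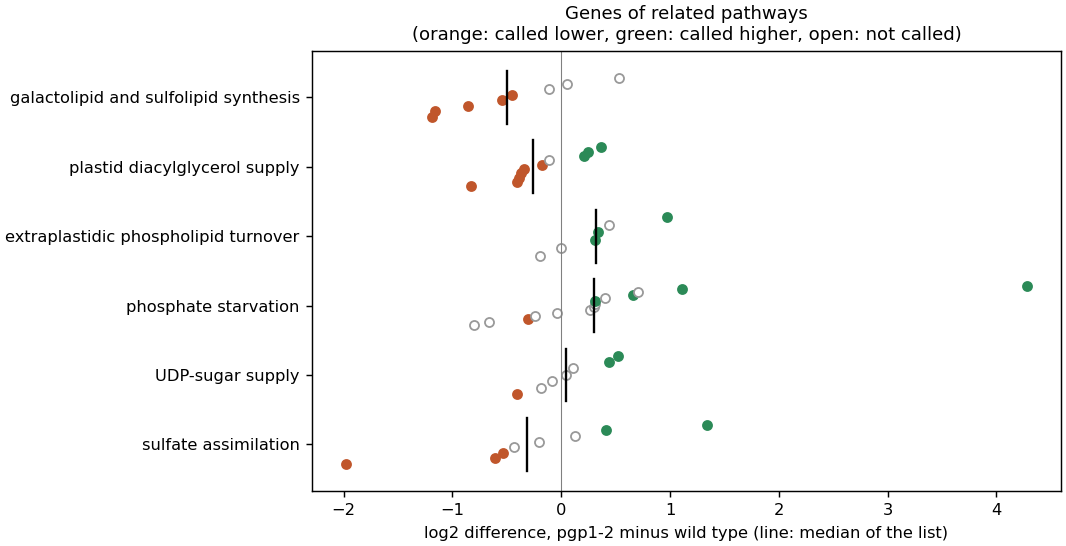
Log2 difference, *pgp1-2* minus wild type (horizontal axis), of each tested gene in 6 lists (vertical axis), orange where called lower, green where called higher, open where not called, with the median of the list as a black line. The galactolipid and sulfolipid list has its median at -0.50 and no gene called higher; the turnover list has no gene called lower.

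The lists for the sugar and sulfur precursors held calls in both directions, with counts to be read against the 27.9% of all genes called higher and 24.5% called lower. Of 7 genes for UDP-glucose and UDP-galactose, 2 were called higher and 1 lower, with a median of 0.049. *UGE1*, a UDP-galactose epimerase, rose by 0.52 (limma adjusted p = 0.00440). *UGP2*, a cytosolic UDP-glucose pyrophosphorylase, fell by 0.40 on the log2 scale (limma adjusted p = 0.00896), but only 1 of its 2 kept probes was called lower. The *UGP2* call was kept in 13 of 20 alternative tests and lost under normexp, with the mean of probes and within slide 2, among others. Relative to measured spike-ins its difference changed sign (0.0077). Of 8 sulfate assimilation genes, which lead to the sulfite that *SQD1* uses, 2 were called higher and 3 lower, with a median of -0.32. *APR3* (AT4G21990), an adenosine phosphosulfate reductase, fell from 1.22 ± 0.074 to -0.76 ± 0.34 (SD, n = 3), a difference of -1.97 (limma adjusted p = 0.000400), and *APS4*, an ATP sulfurylase, rose by 1.34 (limma adjusted p = 0.000208). Both kept their call under every alternative run. Of 5 genes for plastid lipases 2 were tested, *PLIP2* at -0.40 and *PLIP3* at 0.12, and 0 were called. *PGP2* (AT3G55030), the second phosphatidylglycerophosphate synthase gene, was at -0.30 and called lower, with the opposite sign relative to the spike-in RNAs.

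*MGD2* had the lowest difference of the called genes among the 8 at -1.19, with *SFR2* close to it at -1.16 and lower than *MGD2* without wild-type replicate 1 or 2, without mutant replicate 1 and within slide 2. No gene of the 8 had a called rise. The 3 genes nearest to *MGD2* over the 6 arrays, each centred on its mean, were *ATSPS4F* (AT4G10120), a sucrose-phosphate synthase gene, AT5G51310 and *CSLB04* (AT2G32540), at Euclidean distances of 0.40, 0.46 and 0.53 log2 units. Their differences were -1.32, -1.31 and -1.32, values that their choice by likeness to *MGD2* over 6 arrays of 2 groups largely fixes.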

How the data were processed

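Per the file headers, the authors read each array in 1 channel (Cy3) and quantified it in version 10.7.1.1 of Agilent Feature Extraction. Each deposited intensity is that program's processed signal for a spot, a linear value after background correction and spatial detrending. The deposited flags of 0 or 1 mark spots well above background, saturated or outlying, which is another unit than intensity. Control spots and outlying spots were left out, and no spot was saturated.

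From these, log2 of the processed signal minus the array's 75th percentile was computed and averaged over spots of a probe. Probes had to exceed the background in every array of 1 group or the other, by the deposited flag. Where several probes of a gene passed, the one with the highest mean stood for it. Of 43603 probes, 34358 were assigned to 25433 loci with RefSeq's gene table (TAIR10.1), used for names only, since its build differs from that of the files. Two-sided tests used lmFit and eBayes of limma 3.58.1 (R 4.3.3), and p-values were adjusted over 22681 genes by Benjamini-Hochberg. The fit was tested on simulated data. Alternatives were normexp (median spot and background signals, offset 50), quantile, median and spike-in scaling, other probe filters, the mean of probes, the slide or replicate number as a block, slide 2 alone, limma with trend and each array left out, 20 tests per gene in all. The number of arrays limits the precision, and array intensity gives no counting error.

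Members and lists were chosen with earlier results of these data known. Named genes are all members and, in each list, the called gene of largest rise and of largest fall. Other genes were named as members of short lists or beside a member, after their values were seen. They are *PAH1*, *PAH2*, *PLDP1*, *PLIP2*, *PLIP3*, the markers other than *COBL9* and *CASP1*, and the tested phosphate starvation genes other than *RNS1* and *PHR1*. The planned search of promoters for a phosphate-response motif was not run, because no sequences were used here. Across genes, wild-type and mutant arrays of 1 number deviated from their means with correlations of 0.081, 0.12 and 0.059, so no pairing by number was assumed.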

Additional observations from a re-analysis of the deposited data

How the results depend on the processing

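Over all genes, 5567 were called lower and 6317 higher. Normexp gave 3876 lower and 2827 higher, and median scaling 6184 and 5233, so that higher genes made up 42.2% and 45.8% of the calls instead of 53.2%. Spike-in scaling gave 2398 lower and 12851 higher, or 2458 and 12960 with the slide as a block, and higher genes made up 84.3% of the calls of the first. The measured spike-ins, chosen after seeing the data, gave 1088 and 3518, or 2136 and 10708 with the slide as a block. Within slide 2 the counts were 3459 and 3448. Leaving out 1 array gave 4549 to 5128 lower and 5013 to 5971 higher.

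Of the 8 lipid genes, 5 were called lower and 0 higher, beside 24.5% and 27.9% of all genes. Both spike-in scalings gave 3 and 1, beside 10.6% and 56.7%, or 10.8% and 57.1% with the slide as a block. The measured spike-ins gave 0 lower (4.8% of all genes), or 2 and 2 with the slide as a block (9.42% and 47.2%). No filter on dim probes gave 3 lower (13.2%), and slide 2 gave 3 and 1 (15.2% and 15.2%). Leaving out 1 array gave 3 to 5 lower (3 without wild-type replicate 1 or 2) and 0 to 1 higher (1 without mutant replicate 1). The shares of all genes were then 19.7% to 22.4% lower and 21.8% to 26.1% higher. The filter on all 6 arrays gave no value for *MGD3*.

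The other lists held 10, 6, 14, 7, 8, 2, 2, 6, 1 and 4 tested genes. Among them 19 genes were called lower and 16 higher, beside 24.5% and 27.9% of all genes. Normexp gave 11 and 8 (17.1% and 12.5% of all genes). Spike-in scaling gave 7 and 24 (10.6% and 56.7%), or 7 and 23 with the slide as a block (10.8% and 57.1%). The measured spike-ins gave 4 and 8 (4.8% and 15.5%), or 6 and 24 with the slide as a block (9.42% and 47.2%). No filter gave 17 and 9 (13.2% and 14.3%), and slide 2 gave 13 and 9 (15.2% and 15.2%). Leaving out 1 array gave 14 to 18 lower and 9 to 16 higher (9 without wild-type replicate 1 or 2), beside 19.7% to 22.4% and 21.8% to 26.1% of all genes.

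The change of the *DGD2* to *DGD1* ratio was 0.997 on slide 1 and 0.47 to 0.70 when 1 array was left out. Taking replicate numbers as a block gave 5199 lower and 5816 higher genes, and 4 of the lipid genes were called lower, *SQD1* being lost. Number 1 marks the same slide in both groups, and the labels give no other tie between equal numbers. The causes of these shifts were not tested. With 3 arrays per group and signals near background, *MGD3* had a standard error of 0.64.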
